A study of Mus musculus with 24 samples.

Results

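Ufsp1, which encodes a protease of the ubiquitin-like modifier UFM1, had protein-protected sites over 5.88% of its exon in untreated MEL cells and over 62.3% and 68.6% of it 2 and 4 days after DMSO, while none of the other pathway genes examined changed on that scale. PIP-seq sites of 7 genes were examined, namely Ufsp1, Ufsp2, Ufm1, Ufl1, Ufc1, Ddrgk1 and Cdk5rap3. They were chosen by name around Ufsp1, which had been picked for its rise in coverage from day 0 to day 4 in these same data, so its values between days are given as a description. A protein-protected site (PPS) counted as theirs when it overlapped the gene body on the same strand by 1 nt or more. This gave 135 PPSs out of 460777 in the 3 lists, with 36 at day 0, 48 at day 2 and 51 at day 4. Of these, 17 lay in Ufsp1 and 118 in the other genes.

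UFM1 is a small protein that is attached to other proteins in the manner of ubiquitin. Its precursor is trimmed by the proteases UFSP1 and UFSP2, which can also cut it off its targets. UFM1 is later attached to targets by the conjugating enzyme UFC1 together with the ligase UFL1. That ligase works with the membrane adaptor DDRGK1 and with CDK5RAP3. The best known target is the ribosomal protein RPL26 on ribosomes at the endoplasmic reticulum, and loss of pathway enzymes in mice is known to impair the formation of red cells.

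MEL is a mouse erythroleukemia line, blocked at an early erythroid stage, and it served here as a cell culture model of terminal red cell differentiation. Cells were collected without treatment (day 0) and 2 or 4 days after the addition of 2% DMSO, and all were crosslinked with formaldehyde. In each of 2 replicates per day, RNA was digested with a nuclease specific for single-stranded RNA (ssRNase, RNaseONE) or for double-stranded RNA (dsRNase, RNaseV1), either with its proteins in place (footprinting) or after they had been removed (structure-only). This gave 24 libraries in 12 groups, which the authors merged into 1 list of PPSs per day. A PPS is a stretch with more reads in footprinting than in structure-only libraries, so that a gene can gain PPSs through more bound protein or through more RNA to be measured. PPS coverage cannot tell these apart, and mRNA abundance was not analysed here.

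The labelled cell type was checked with marker genes. All 9 erythroid markers held PPSs in their exons, with a median coverage of 18.6% at day 0, 29.6% at day 2 and 45.6% at day 4. In every replicate, 7 of them were higher at day 4 than at day 0, against 30.8% of all 9550 protein-coding genes with an exonic PPS. Of 3 markers each, 2 for megakaryocytes (Pf4 and Itga2b) and 1 for macrophages (Cd68, at day 2 alone) held exonic PPSs, and none did for T cells, B cells or fibroblasts. At day 0, 2 and 4, Pf4 was covered to 31.2%, 6.93% and 11.5% and Itga2b to 37.9%, 37.1% and 44.2%. Both lay above the erythroid median at day 0. The lists held 138689, 169575 and 152513 PPSs at day 0, 2 and 4, and the read depth of each library is unknown from them. dsRNase calls of replicate 2 at day 2 were the fewest of the 12 sets of calls, found in 20569 PPSs, against 33777 to 66586 in the other dsRNase sets.

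Ufsp1 is a gene of 1 exon on the plus strand of chromosome 5 (GRCm38, the build also called mm10), at chr5:137294629-137295665. The acetylcholinesterase gene Ache lies before it on the same strand and ends 162 nt upstream, and Srrt, the gene of the RNA processing factor ARS2, lies on the opposite strand and ends 38 nt downstream. The stretches that matter for what follows are the base before the start codon of Ufsp1, where its only day 0 PPS began, the 3′ ends of Ache and Ufsp1, and the middle of the part of the gap that lay in a PPS at day 4. All are from GRCm38, plus strand, 5′ to 3′. Capitals mark the start codon at the start of Ufsp1 and the poly(A) signal hexamer at both 3′ ends, and the gap has none.
Ufsp1 start, chr5:137294789-137294818: gATGacagctgctctaccgagcaccctgga
Ache 3′ end, chr5:137294432-137294461: ctctgggccgccAATAAActgttacagcca
Ufsp1 3′ end, chr5:137295630-137295659: gttctgaaaaatAATAAAttggcgtaattc
Gap between Ache and Ufsp1, chr5:137294501-137294530: gaggtcagagacgctgggaacagaagcctc
The hexamer AATAAA, searched on the transcript strand alone, began 23 nt before the annotated end of Ache and 24 nt before that of Ufsp1. It was present in the last 50 nt of 57.1% of 21944 protein-coding transcripts, so both genes have a common kind of 3′ end as far as these letters go.

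Coverage was measured as the percentage of a gene's exonic nucleotides that lay in a PPS on its strand, after PPSs of 20 to 40 nt, the size of a ribosome footprint, had been left out. Replicate values used the PPSs that held a call of that replicate. Because calls of both replicates had been merged into shared sites, the spread between replicates is understated, and the pooled value of a day can exceed both of its replicates. With 2 replicates against 2, an exact two-sided permutation test cannot give a p below 0.33, so no p-value is given. Instead, a gene is called higher or lower when both replicates of a day lay above or below both of another day.

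In Ufsp1, PPSs covered 0% of the exon in replicate 1 and 5.88% in replicate 2 at day 0. At day 2 they covered 62.3% and 44.8%, and at day 4 64.0% and 68.6%. All replicates of day 2 and day 4 thus lay far above day 0, and those of day 4 lay slightly above those of day 2. In the pooled lists coverage was 5.88%, 62.3% and 68.6%, a gain of 62.7 points by day 4 (58.1 to 68.6 over the 4 pairs of replicates). Of 9550 protein-coding genes with an exonic PPS at some day, only 3 gained more by day 4 (Ufsp1 ranked 4), and from day 0 to day 2 its gain of 56.4 points (39.0 to 62.3) ranked 1. Most of the change was present by day 2, as the further gain to day 4 was 6.27 points (1.74 to 23.7).

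**Figure D1:**
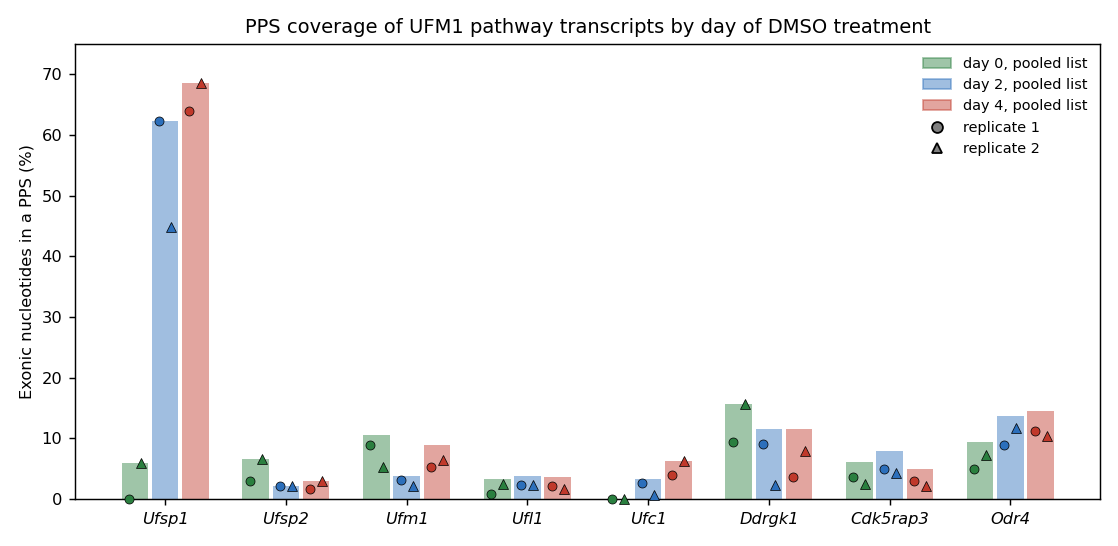
Exonic PPS coverage (percent of exonic nucleotides, vertical axis) of 7 UFM1 pathway genes and of Odr4 at day 0, 2 and 4; bars are the pooled list of a day, circles replicate 1 and triangles replicate 2. Ufsp1 stands at 5.88%, 62.3% and 68.6%, while the other genes stay at 15.6% or less at every day.

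Both nucleases showed the gain in Ufsp1, in a different time course. With ssRNase, replicates 1 and 2 gave 0% and 5.88% at day 0, 51.6% and 26.3% at day 2, and 38.0% and 46.3% at day 4, so that day 2 and day 4 overlapped. With dsRNase, both replicates were at 0% at day 0, at 29.2% and 18.5% at day 2, and at 42.0% and 41.9% at day 4, so that day 4 lay above day 2 in each pair. Among all genes, both replicates were higher at day 4 than at day 0 in 22.2% with ssRNase and 27.2% with dsRNase, and at day 2 than at day 0 in 23.1% and 7.66%. From day 2 to day 4 they were higher in 16.9% with ssRNase and 34.9% with dsRNase, so a gain in dsRNase coverage between these days was common.

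The single day 0 site of Ufsp1 was 61 nt long, came from 1 ssRNase call of replicate 2, and ran from the base before the start codon into the coding sequence. At day 2 there were 7 PPSs, of which 3 (42.9%) held calls of both replicates. At day 4 there were 9, of which 8 (88.9%) did, against 35.8% of all PPSs of that day. Their median score, the authors' measure of enrichment, was 21.8 at day 4 against 8.35 over the whole list. A merged PPS appears to add up the scores of its calls, so the score follows the number of calls. Ufsp1 was picked for its rise to day 4 in these same calls, so its share and score at day 4 are descriptions.

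Joined across days, the sites of Ufsp1 formed 5 regions. Protection at the start of the coding sequence was found at all 3 days, and the other 4 regions at day 2 and day 4. The PPSs of the 3 days shared 51 nt just inside the coding sequence, of which the middle 30 are shown (plus strand, GRCm38, no capitals).
Ufsp1 at all days, chr5:137294809-137294838: gcaccctggagctgctgaaggacgtgcacc

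The parts of the Ufsp1 transcript differed in their time course. In the 5′ UTR of 161 nt it went from 0.621% to 67.1% by day 2 and to 82.6% by day 4. In the coding sequence of 654 nt it was 9.17%, 74.6% and 70.5%, so that it was no higher at day 4 than at day 2. In the 3′ UTR of 222 nt it was 0%, 22.5% and 52.7%. Replicate 1 gave the same day 2 values, but replicate 2 of day 2 gave 23.6% in the 5′ UTR, 65.3% in the coding sequence and 0% in the 3′ UTR. At day 4 both replicates gave 82.6% in the 5′ UTR and 52.7% in the 3′ UTR. The highest score in the gene, 37.08, belonged to a day 4 PPS of 149 nt that ran across the stop codon into the 3′ UTR and was called with dsRNase in both replicates and never with ssRNase.

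Ache, the gene just upstream, changed alongside Ufsp1. Its replicates stood at 5.54% and 9.15% at day 0, at 33.7% and 39.3% at day 2, and at 58.9% and 49.3% at day 4, so that no day overlapped another. The pooled gain to day 4 was 51.8 points (40.1 to 53.3), which ranked 10 of 9550 genes. In its transcript with the longest coding sequence, the coding part went from 22.9% to 75.9% and 86.6%. The 4004 nt of introns of that transcript went from 1.37% to 17.7% and 42.2%. Ache has 9 annotated transcripts with 4623 exonic nt in all, so part of these introns is exon in other transcripts. Over the 12 sets of calls (3 days, 2 nucleases, 2 replicates), Ache was also the gene whose coverage lay nearest to that of Ufsp1, at a Euclidean distance of 40.9 points among 9496 genes with at least 500 exonic nt. The next were Hba-a2, an alpha globin, at 42.7, Irs2, an insulin receptor substrate, at 45.2, Slc25a37, the mitochondrial iron carrier mitoferrin, at 46.6, and Epor, the erythropoietin receptor, at 49.2. Hba-a2 has a near-identical copy whose reads cannot be assigned with certainty. The sets of a day share merged sites, and with Pearson's r in place of distance only Hba-a2 stayed among the nearest 5 (r = 0.96), with Ache at rank 57 (r = 0.80).

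The gap between Ache and Ufsp1 was itself protected. Of its 162 nt, PPSs took up 35.2% at day 0 and 19.1% at day 2, from replicate 1 alone on both days. At day 4 they took up 94.4% in both replicates. At day 4 it was covered to 94.4% by PPSs with ssRNase calls and to 61.1% by PPSs with dsRNase calls. A day 4 PPS of 189 nt with a score of 47.14 and calls of both replicates began 90 nt before the annotated end of Ache and ran 99 nt into the gap. Another of 66 nt, called with ssRNase in both replicates, began 54 nt before the annotated start of Ufsp1 and ran 12 nt into it; at day 2 a PPS of 49 nt from 1 ssRNase call of replicate 1 also crossed that start. No PPS crossed the end of Ache at day 0 or day 2.

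Among 111 same-strand pairs of neighbouring protein-coding genes, both with an exonic PPS and at most 500 nt apart, few gaps were protected. Any PPS in the gap was found in 4.50%, 7.21% and 5.41% (day 0, 2 and 4). The pairs were not matched for exonic coverage, which at day 4 was 62.1% in Ache and 68.6% in Ufsp1. The median over all genes with an exonic PPS was 6.02% at that day. The coverage of the Ache and Ufsp1 gap was reached by 1 pair at day 0 and at day 4, which was this pair itself, and by 4 pairs, this one included, at day 2. Among the 7 genes, only Ufsp1 had a gene ending within 1 kb upstream on its strand. Whether the PPSs of Ufsp1 lay on its own transcripts or on RNA continuing from Ache was not tested, and site lists alone cannot tell these apart.

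**Figure D2:**
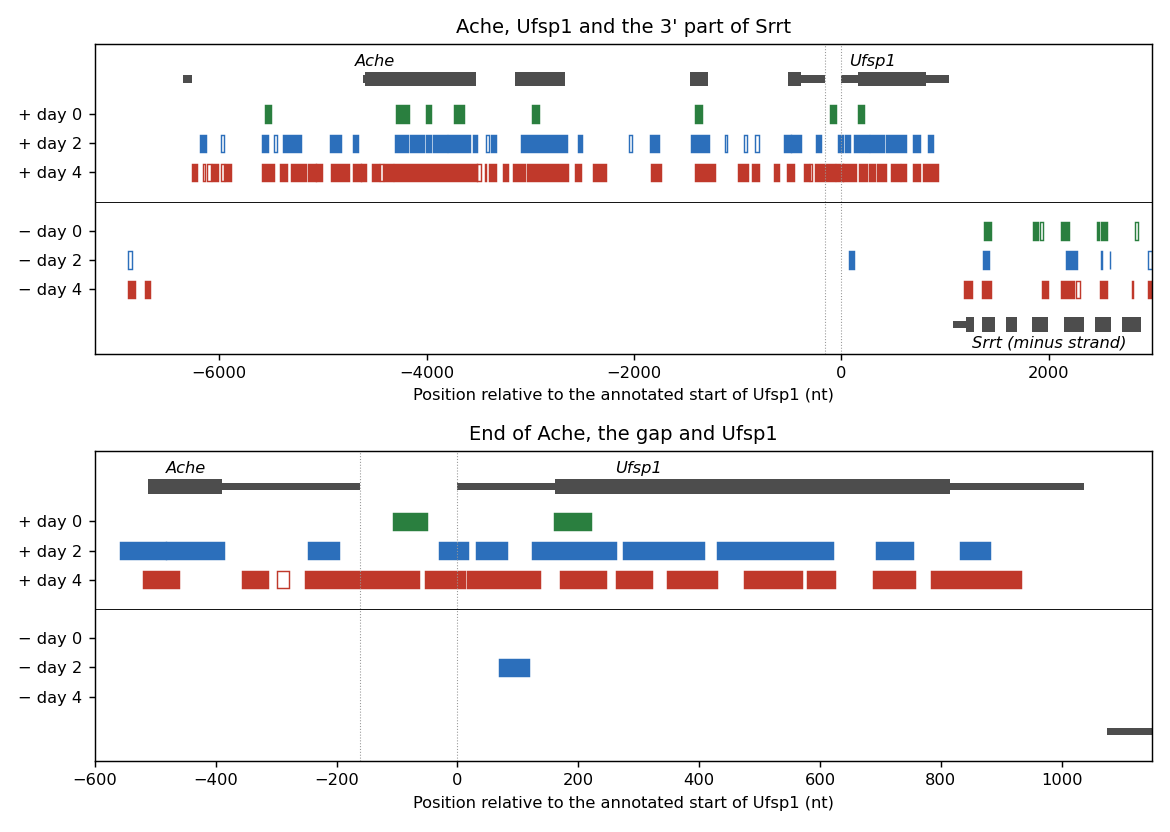
PPSs around Ufsp1 by strand and day, against the distance in nt from its annotated start; the upper panel shows Ache, Ufsp1 and the 3′ part of Srrt, the lower panel the end of Ache and Ufsp1. Grey boxes are exons (thick, coding sequence), open boxes PPSs of 20 to 40 nt, and dotted lines the end of Ache and the start of Ufsp1, whose gap is covered to 94.4% at day 4.

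The other neighbours were examined on both strands. Srrt had replicates of 17.9% and 12.9% at day 0, 11.7% and 15.9% at day 2, and 21.8% and 21.2% at day 4. It was higher at day 4 than at day 0, but its pooled gain was 2.77 points. On the plus strand no PPS was found beyond Ufsp1, either in the 38 nt before Srrt or along the Srrt gene body, at any day. The microRNA genes are too short to be read with confidence: Mir8116, on the plus strand within the Ache gene body, was covered to 57.7% at day 4 in replicate 2 alone, and Mir7036 held no PPS. On the minus strand, opposite Ufsp1, the lists held a single PPS of 50 nt at day 2, from 1 ssRNase call of replicate 2 with the lowest score in the list, 5.4.

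**Figure D3:**
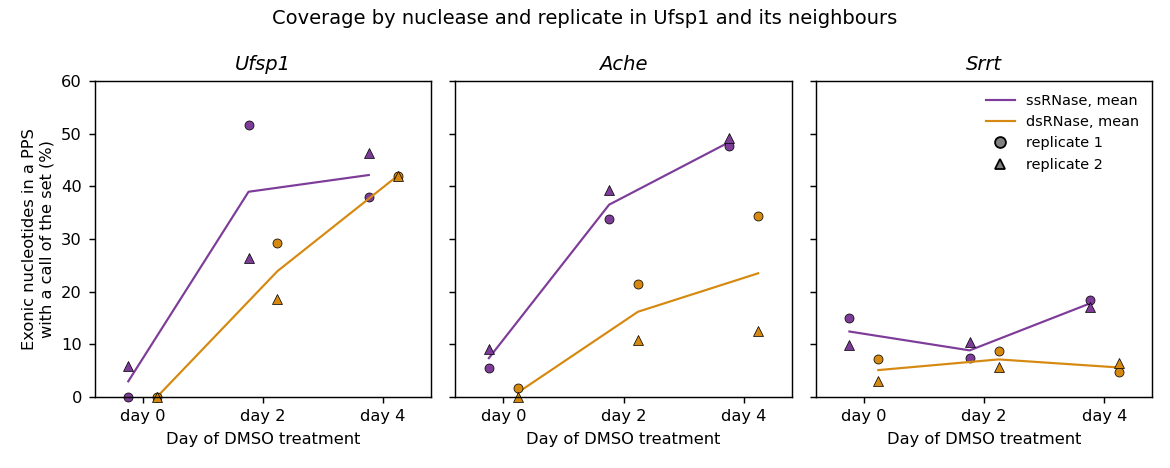
Exonic coverage of Ufsp1, Ache and Srrt (percent, vertical axis) by day, from PPSs with a call of ssRNase (purple) or dsRNase (orange); circles are replicate 1, triangles replicate 2 and lines the mean of both. Ufsp1 and Ache stand higher at day 2 and day 4 than at day 0 with each nuclease, and Srrt stays below 20% throughout.

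Across the 7 genes, 2 were higher at day 4 than at day 0 in every replicate (Ufsp1 and Ufc1) and 1 was lower (Ddrgk1). Among all 9550 genes, 30.8% were higher and 25.4% lower by the same rule. From day 0 to day 2, Ufsp1, Ufc1 and Cdk5rap3 were higher and Ufsp2, Ufm1 and Ddrgk1 lower (22.3% and 30.4% of all genes). From day 2 to day 4, Ufsp1, Ufm1 and Ufc1 were higher and Ufl1 and Cdk5rap3 lower (33.8% and 19.3% of all genes). With 7 genes, such counts cannot be set apart from these shares. Their median change from day 0 to day 4 was -1.13 points, against 0 over all genes.

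Ufsp2, the larger UFM1 protease, did not share the pattern of Ufsp1. Its coverage was 2.93% and 6.56% at day 0, 2.06% in both replicates at day 2, and 1.68% and 2.97% at day 4. Day 2 was lower than day 0, and day 4 overlapped both. These values are over the 4407 exonic nt of 9 transcripts, with pooled changes of -4.49 points to day 2 and -3.59 to day 4. In the transcript with the longest coding sequence they were -13.8 and -8.72. Its coding sequence was covered to 7.58% and 18.3% at day 0, 1.95% in both replicates at day 2, and 3.90% and 8.01% at day 4. Ufsp2 kept 2 sites at all 3 days, 1 of them across the end of a coding exon with calls of both replicates each day. The other lay inside an intron, with a score that went from 34.96 at day 0 to 8.14 and 7.

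Ufm1, the modifier itself, was covered to 8.91% and 5.25% at day 0, to 3.05% and 2.15% at day 2, and to 5.19% and 6.38% at day 4. It was lower at day 2 and higher again at day 4, with day 4 and day 0 overlapping. The change was largest in its short coding sequence of 258 nt, which was protected to 48.8% in replicate 1 and 26.4% in replicate 2 at day 0, by dsRNase calls alone, and to 0% at both later days. The 0% depends on the length limit, since with PPSs of 20 to 40 nt kept the pooled values were 48.8%, 11.2% and 19.0%. The middle of the longest day 0 stretch in the coding sequence is printed after this gene's values (minus strand, GRCm38, no capitals). Its long 3′ UTR was covered to 11.1%, 4.96% and 11.7%.
Ufm1 coding sequence, chr3:53857947-53857976: cggctcagaactgagaatcattcctagaga

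Ufc1, the conjugating enzyme, had no PPS in either replicate at day 0. Coverage reached 2.61% and 0.628% at day 2 and 3.91% and 6.28% at day 4, so that it was higher in each comparison, although by few nucleotides. In the 3′ UTR coverage was 0%, 12.8% (replicate 1 alone) and 24.7% (both replicates). In the coding sequence it was 0%, 4.96% and 9.72%, or 0%, 28.6% and 23.6% with PPSs of 20 to 40 nt kept. In the 3′ UTR a day 4 PPS of 81 nt held calls of both dsRNase replicates and of ssRNase replicate 2, with a score of 35.86, and overlapped a day 2 PPS of 42 nt with a single call.

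Over the exons of all their transcripts, the genes of the ligase complex showed small changes. Exons of genes on the opposite strand overlap those of Ufsp2, Ufl1 and Cdk5rap3 by 57, 96 and 227 nt, and the values use the strand given for each PPS. Ufl1, the ligase, was covered to 0.806% and 2.44% at day 0, 2.33% and 2.28% at day 2, and 2.05% and 1.59% at day 4. Its sites lay in coding sequence and none in the 3′ UTR at any day. Ddrgk1, the adaptor, was covered to 9.45% and 15.6% at day 0, 9.12% and 2.35% at day 2, and 3.65% and 7.92% at day 4. Both later days lay below both replicates of day 0. The pooled change to day 4 was -4.08 points, but against replicate 1 of day 0 alone it was 2.11, a comparison of 2 pooled replicates with 1. Cdk5rap3 was covered to 3.62% and 2.52% at day 0, 4.91% and 4.25% at day 2, and 2.96% and 2.05% at day 4. It was higher at day 2 than at the other days, although the change to day 2 was -1.89 points without replicate 1 of day 2 and -1.23 without replicate 2, where 1 replicate is set against 2 pooled.

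**Figure D4:**
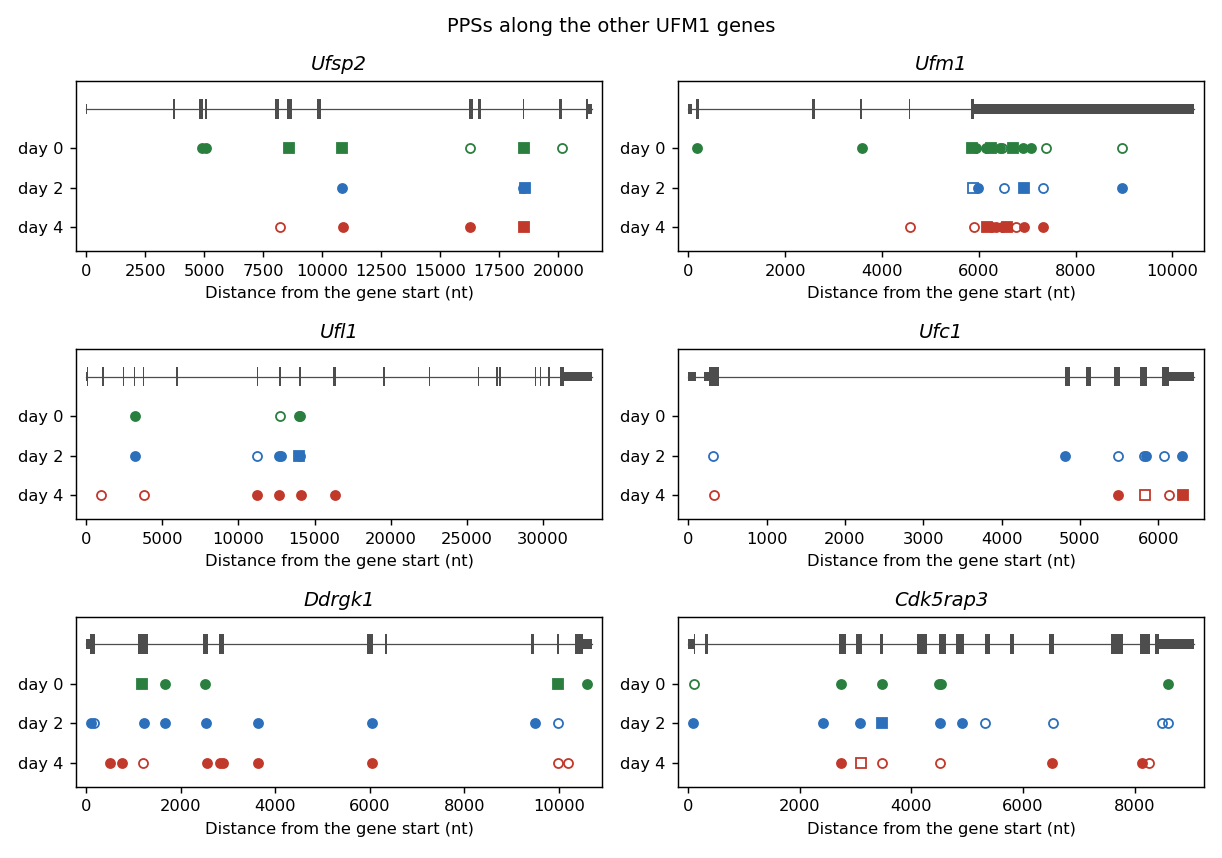
PPSs along Ufsp2, Ufm1, Ufl1, Ufc1, Ddrgk1 and Cdk5rap3 by day, against the distance in nt from the gene start; boxes are exons of the transcript with the longest coding sequence, squares PPSs with calls of both replicates, circles PPSs of a single replicate, and open symbols PPSs of 20 to 40 nt. Ufc1 has no site at day 0, and the sites of Ufm1 gather in its long 3′ UTR.

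The sites of these other genes numbered 28, 26 and 26 without the 20 to 40 nt class. Calls of both replicates were found in 28.6%, 15.4% and 15.4% of them, against 0%, 42.9% and 88.9% in Ufsp1 (of 1, 7 and 9 sites) and 30.8%, 30.8% and 35.8% of all PPSs. The Ufsp1 shares are descriptions, as the gene was picked for its rise to day 4 in the same calls. Joined across days, the sites of the other genes formed 54 regions, of which 5 were found at all 3 days. The middle 30 nt shared by the PPSs of the 3 days are shown for each, since they are the sites that did not depend on a single list (transcript strand, GRCm38, no capitals).
Ufsp2 intron, chr8:45986372-45986401, plus strand: cttagataactggattggcacagagtgagg
Ufsp2 exon end, chr8:45994073-45994102, plus strand: ggcaccccagtgatggtcggtaagctgctg
Ufm1 3′ UTR, chr3:53856888-53856917, minus strand: gatttacataagatttcagggctggcaccc
Ufl1 coding sequence, chr4:25267719-25267748, minus strand: caggtggaagcatccgtagaggaagccatc
Ddrgk1 coding sequence, chr2:130662111-130662140, minus strand: gaaaattggagccaagaaactacggaagct
Of the Ufsp2 exon end, the first 19 bases are coding in the transcript with the longest coding sequence and the last 11 lie in its next intron, which another annotated transcript counts as exon. The stretches shared by the 3 days were 45 and 47 nt long in Ufsp2, 50 nt in Ufm1, 44 nt in Ufl1 and 39 nt in Ddrgk1. Ufc1 and Cdk5rap3 had no region found at all 3 days without the 20 to 40 nt class. In Cdk5rap3 this depends on the length limit, since day 4 PPSs of 34 and 39 nt overlapped PPSs of day 0 and day 2. The count of 5 regions depends on it as well. In Ddrgk1, day 4 PPSs of 23 and 40 nt overlapped PPSs of day 0 and day 2. In Ufm1, a day 2 PPS of 30 nt and a day 4 PPS of 34 nt overlapped a day 0 PPS at the end of the coding sequence.

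Of 3 further genes of the pathway, 2 were higher at day 4 than at day 0 and none was lower, too few to be set apart from the 30.8% and 25.4% of all genes. Odr4, which encodes a partner of UFSP2, went from 4.93% and 7.32% to 11.1% and 10.4%. Trip4, which encodes a transcriptional coactivator modified by UFM1, went from 1.82% and 1.80% to 7.41% and 5.84%. Rpl26, the ribosomal target, overlapped between these days, and its nucleases differed. Its pooled ssRNase coverage was 13.5%, 2.56% and 0% at day 0, 2 and 4, and its dsRNase coverage 15.9%, 11.6% and 19.5%. With ssRNase both replicates were lower at day 4 than at day 0, as in 21.4% of all genes, and with dsRNase both were higher, as in 27.2%. Ribosomal protein genes have many processed copies in the genome, so its values are uncertain.

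Other ubiquitin-like systems were set beside the pathway, each by its count and its median change from day 0 to day 4, where 30.8% of all genes were higher and 25.4% lower. Of 16 SUMO genes, 10 were higher and 2 lower (median 3.37 points), with the largest changes in the ligase gene Pias3 (20.1 points) and in Sumo2 (18.4). Of 9 NEDD8 genes, 5 were higher and 1 lower (0.33), led by Dcun1d1 (11.6) and Uba3 (8.02). In 1 of these 5 the pooled coverage nonetheless changed by -3.65 points. Of 15 ATG8 and ATG12 genes, 6 were higher and 1 lower (0.34), led by Gabarapl1 (10.8) and Gabarap (7.70), of which the latter had overlapping replicates. Of 6 ISG15 and URM1 genes, 2 were higher and none lower (0.596), and these were Uba7 (21.7) and Ube2l6 (12.02), the activating and conjugating enzymes of ISG15. No gene of these lists came near the gain of Ufsp1, but Ufsp1 had been picked for that gain, so this is a description.

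**Figure D5:**
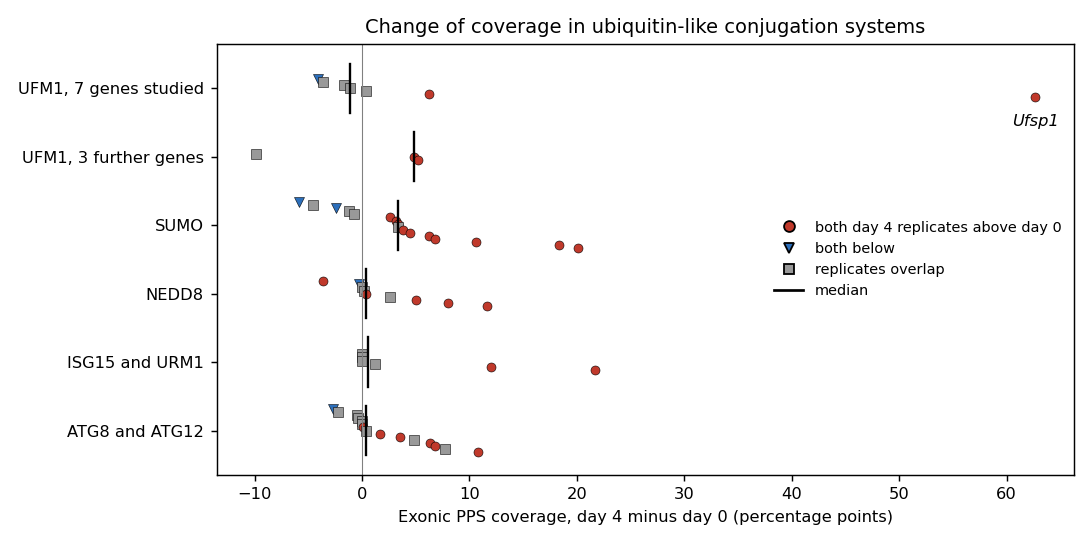
Change of exonic PPS coverage from day 0 to day 4 (percentage points, horizontal axis) for genes of the UFM1, SUMO, NEDD8, ISG15 and URM1, and ATG8 and ATG12 systems; red circles have both day 4 replicates above day 0, blue triangles both below, grey squares overlap, and black lines are medians. Ufsp1 lies at 62.7 points, and the next gene, Uba7, at 21.7.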

How the data were processed

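Reads were trimmed with cutadapt 1.2.1 and aligned to mm10 with TopHat2 2.0.10 per the labels. According to the study's methods, up to 10 hits per read were kept, PCR duplicates were collapsed, and PPSs were called at an FDR of 5% with a modified CSAR, a Poisson test of footprinting against structure-only libraries. The authors pooled the calls of each day into 1 deposited list with a score per PPS. How libraries were scaled is not given in the sources used here, and their depth is unknown from the lists. The name field of each PPS, which lists nuclease and replicate, was matched to the sample titles and gave 12 sets of calls (4 per day).

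Genes were taken from GENCODE M21 on 21 chromosomes. Sequences were read from the GRCm38 RefSeq assembly, and matches to a hexamer are descriptions. PPSs of 20 to 40 nt were left out, as in the study. Exonic coverage, its range over 4 pairs of replicates and the rule of non-overlapping replicates were computed for all 9550 protein-coding genes with an exonic PPS. The functions were tested on simulated data, where 200 of 200 genes with an added PPS were recovered among 21951. Named genes were the 7 members, 3 further pathway genes, the neighbours of Ufsp1, the 5 genes nearest to it in pattern and the 2 genes with the largest change in each other list; 1 result of this rule is left unreported. Members and lists were chosen with earlier results of these data known. Alternatives were score, length, nuclease, the transcript with the longest coding sequence, replicate support, leaving out each replicate, overlap and likeness. Python 3.11.15, numpy 2.4.6 and matplotlib 3.10.9 were used.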

Additional observations from a re-analysis of the deposited data

Results flagged for a closer look

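Ufm1 moved in opposite directions with the nucleases from day 0 to day 4. Its pooled coverage changed by 3.93 points with ssRNase (1.51 to 2.42 over the pairs of replicates) and by -3.16 points with dsRNase (-3.99 to -0.0671). The pooled value can exceed that of each pair because it joins the sites of both replicates. Of all genes, 22.2% were higher with ssRNase and 17.4% lower with dsRNase between these days. The difference between the nucleases was not tested. On the strand opposite Ufsp1, where no gene is annotated, a PPS of 50 nt was called at day 2 with a score of 5.4, from ssRNase replicate 2, while day 0 and day 4 had none.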

How the results depend on the processing

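The change of Ufsp1 kept its direction under all 37 alternatives, 29 of which moved it by less than the understated spread between replicates. Several could not move it, as Ufsp1 has 1 transcript, no PPS of 20 to 40 nt and no exonic nt shared with another gene. Ufsp1 was also picked for this rise, so the tally is a description and no test of it. It ran from 48.3 to 68.6 points from day 0 to day 4, from 29.2 to 62.3 from day 0 to day 2, and from 1.74 to 33.7 from day 2 to day 4. The gain to day 4 was 48.3 with ssRNase calls only, that to day 2 was 29.2 with dsRNase calls only, and that from day 2 to day 4 was 19.2 with a score of 10 or more, 19.2 with calls of both replicates and 33.7 with dsRNase calls only. Leaving out a replicate, which sets 1 replicate against 2 pooled and so lowers that day by construction, gave 58.1 to 68.6, 39.0 to 62.3 and 1.74 to 23.7; the lowest gain to day 2 and the highest after it were without replicate 1 of day 2. The exon of Ufsp1 in RefSeq was an alternative chosen after seeing the data, gave 61.6, 55.9 and 5.72.

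Of 198 alternative values for the other 6 genes, 34 had the opposite sign to the main value. In 12 of these the replicates of the main comparison had not overlapped, as follows. With ssRNase calls only, the change was 2.15 for Ufm1 from day 0 to day 2, 2.21 for Ddrgk1 from day 0 to day 4, and -1.50 from day 0 to day 2 and 0.367 from day 2 to day 4 for Cdk5rap3. Without replicate 2 of day 0, Ddrgk1 changed by 2.11 to day 4 and by 2.02 to day 2. Without replicate 1 or 2 of day 2, the change was 1.37 or 1.31 for Ufl1 and 0.761 or 0.105 for Cdk5rap3 from day 2 to day 4, and -1.89 or -1.23 for Cdk5rap3 from day 0 to day 2. Srrt changed by -1.87 from day 0 to day 4 with PPSs of every length. Over all replicates left out in turn, Ufl1 ran from -2.23 to 1.37 from day 2 to day 4, Ddrgk1 from -12.0 to 2.11 from day 0 to day 4 and from -13.3 to 2.02 to day 2, and Cdk5rap3 from -1.89 to 5.35 from day 0 to day 2 and from -5.82 to 0.761 from day 2 to day 4. The cause was not tested beyond that construction. With a score of 10 or more the 7 genes held 10, 10 and 16 PPSs, and 1 of the 5 genes nearest to Ufsp1 remained under Pearson's r.

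Of all 9550 genes, 2133 were higher and 2906 lower at day 2 than at day 0 with all calls. With dsRNase calls 732 (7.66%) were higher, and with ssRNase calls 1582 (16.6%) were lower. From day 2 to day 4, 3225 were higher and 1841 lower with all calls. With ssRNase calls 1618 (16.9%) were higher, and with dsRNase calls 599 (6.27%) were lower. Leaving out a replicate gave 2851 to 3303 genes higher at day 2 and 2243 to 2994 lower from day 2 to day 4. The rule then has fewer replicate values to separate, so these counts can only rise. No paired analysis was possible because the lists are merged per day, the labels link no replicate between days and no test was run. Read depth and library scaling are unknown, so a site missing from a list is not shown to be unprotected.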
